A study of Mus musculus with 8 samples.

Results

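Transcripts of the mitochondrial ribosomal protein genes were examined in primary fibroblast cultures from mouse embryos of 4 genotypes. Members were the rows whose symbol is Mrpl or Mrps followed directly by a number and at most 1 final letter, with pseudogene rows left out. This gave 78 genes of the 24972 in the table, 49 named for the large subunit (Mrpl) and 29 for the small subunit (Mrps). The cultures were made at embryonic day 14, grown in DMEM with serum, passaged and left untreated, and total RNA was sequenced. The genotypes were WT, Tfam+/- (heterozygous for Tfam), Zbp1-/- (lacking Zbp1) and Tfam+/-Zbp1-/- (both together, called the double mutant), with 2 libraries each. The sources used here give neither the embryo each library came from, nor whether embryos were pooled, nor how the alleles were made, so tests measure the spread between these libraries, which may be technical.

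The mitochondrial ribosome translates the few messenger RNAs encoded by mitochondrial DNA, all of which specify subunits of the respiratory chain and ATP synthase. Its ribosomal RNAs are transcribed from mitochondrial DNA, whereas its proteins are encoded in the nucleus, made in the cytosol and imported. TFAM packages mitochondrial DNA and starts its transcription, and ZBP1 senses nucleic acids in the Z conformation. The design therefore measures transcripts of the nuclear genes for these proteins after loss of a Tfam allele, with and without Zbp1.

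Values were the authors' normalized counts, which are not whole numbers. Library totals were 16752835 to 18303036, and 16051 to 16261 genes were above 0 in a library. All 12 fibroblast markers were well expressed, with Col1a1 at 103969 or more in every library. Tfam itself had 629 and 610 normalized counts in WT, 278 and 365 in Tfam+/- cells, 675 and 471 in Zbp1-/-, and 424 and 375 in the double mutant, so all 4 libraries heterozygous for Tfam were below the other 4. Leukocyte markers were also present: all 8 were detected in every library, and their sum was 4336 to 4378 in WT, 5000 to 5461 in Tfam+/- cells, 2461 to 2741 in Zbp1-/- and 2214 to 2246 in the double mutant. Neural and Schwann markers summed to 1892 to 3371. Of the epithelial, endothelial and skeletal muscle markers, Epcam, Cdh1, Pecam1, Cdh5, Myod1 and Myog stayed at or below 7.48 normalized counts. Other genes of those lists were expressed, with Krt18 at 57.0 to 230, Krt8 at 55.1 to 169, Kdr at 148 to 332 and Des at 358 to 899. The muscle actin gene Acta1 had 478 and 470 in WT, 853 and 646 in Tfam+/- cells, 229 and 292 in Zbp1-/-, and 242 and 246 in the double mutant. A mean of at least 10 was reached by 3 epithelial, 2 endothelial, 2 skeletal muscle and 5 neural and Schwann markers. Of these, 2, 0, 1 and 1 were called lower in the double mutant against Tfam+/- (limma, adjusted p under 0.05). So were 7 of 8 leukocyte markers and 308 of 13267 genes. Of 12 fibroblast markers, 3 were called higher, beside 440 of 13267 genes, and 3 had a change below 0. Whether fewer cells of a type or less RNA per cell lies behind a difference cannot be told apart in bulk RNA. Any part of these markers in the member values was not tested.

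A pair of libraries stood apart, Tfam+/- replicate 1 and Zbp1-/- replicate 2, which deviated together from the other library of their genotype. Because these 2 libraries come from different genotypes, every comparison with Tfam+/- or Zbp1-/- contains 1 of them. Results are therefore given for all 8 libraries, then with a term shared by the pair, then for the 6 libraries without it. In those 6 libraries Tfam+/- and Zbp1-/- have 1 library each, so only WT and the double mutant hold replicates there. For contrasts with a single mutant and for the interaction, that fit holds no spread within the single mutant. Its calls there rest on the spread of WT and the double mutant alone. Those counts are printed for completeness and are not comparable with the counts of the other fits. Only the medians and log2 changes of that fit are read for these contrasts. The pair was known from earlier results on these data, so the term was chosen from the same deviation that it removes. With it the prior degrees of freedom went from 2.77 to 15.1. Its adjusted p-values are therefore likely too small, and its calls are descriptions.

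Members lay on 17 chromosomes, and 27 of 78 (34.6%) had their start within 1000 bases of the start of a gene on the opposite strand, compared with 12% of 12604 tested genes with a gene model. Several of these head-to-head partners also serve mitochondria. Mrps12 lay opposite Sars2, the mitochondrial seryl-tRNA synthetase, Mrpl36 opposite Ndufs6 and Mrpl47 opposite Ndufb5, both complex I subunits. Mrpl46 and Mrps11, a large and a small subunit gene, faced each other on chromosome 7 with their starts 42 bases apart. In 69 members with a promoter window in RefSeq (GRCm38.p6, the assembly also called mm10; 250 bases before to 50 after the start), short motifs were counted on both strands. CCGGAA, the core of sites for ETS factors such as GABP, stood in 56.5% of member windows and in 28.1% of those of tested genes. Its longer form CCGGAAGT stood in 15.9% against 8.3%. TGCGCA, a part of the site of the respiratory factor NRF1, stood in 30.4% against 14.5%, and the longer NRF1 palindrome, which can overlap it, in 4.3% against 2.0%. AAGATGGC, a YY1 match, stood in 17.4% against 4.6%. The E-box CACGTG was less common in members, at 7.2% against 10.2%. Over all 27025 promoters of the table, the shares were 15.2% for CCGGAA, 8.1% for TGCGCA, 2.9% for AAGATGGC and 7.2% for CACGTG. A match describes letters in the window and not a bound site. To show how compact these promoters are, stretches upstream of 5 members with a full motif are printed 5′ to 3′ on the strand of the gene, with the match in capitals (the NRF1 palindrome in Mrpl39 and Mrpl32, and CCGGAAGT in Mrpl3, Mrps22 and, on the opposite strand, Mrps26). The last line is the whole stretch shared by Mrpl46 and Mrps11, on the strand of Mrps11, which holds no NRF1 palindrome.
Mrpl39, chr16:84735295-84735394, minus strand: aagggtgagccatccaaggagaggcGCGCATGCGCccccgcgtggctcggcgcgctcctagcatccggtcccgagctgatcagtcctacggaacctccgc
Mrpl32, chr13:14613058-14613157, minus strand: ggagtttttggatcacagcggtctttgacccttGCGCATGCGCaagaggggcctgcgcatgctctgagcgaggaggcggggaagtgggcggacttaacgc
Mrpl3, chr9:105053168-105053267, plus strand: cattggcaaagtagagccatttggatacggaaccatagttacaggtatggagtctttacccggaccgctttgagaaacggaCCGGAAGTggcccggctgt
Mrps22, chr9:98601680-98601779, minus strand: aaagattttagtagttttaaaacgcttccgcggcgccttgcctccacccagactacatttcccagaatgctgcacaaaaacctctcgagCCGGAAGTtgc
Mrps26, chr2:130563657-130563756, plus strand: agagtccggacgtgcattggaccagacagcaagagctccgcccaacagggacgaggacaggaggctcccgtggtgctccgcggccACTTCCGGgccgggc
Mrps11, chr7:78783090-78783130, plus strand: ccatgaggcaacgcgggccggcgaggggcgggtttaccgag

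All 78 members were expressed and passed the filter of a mean of at least 10 normalized counts. Per kilobase of transcript, their median level was 381.5 normalized counts, above that of 73.4% of 12697 tested genes with a length, whose median was 160.4. Cytosolic ribosomal proteins were far more abundant, with a median of 12820 per kilobase over 79 genes. The subunits were close: the median was 387.0 per kilobase for the 49 Mrpl genes and 370.7 for the 29 Mrps genes, within broad ranges of 81.4 to 1550 and 69.1 to 1388. In the large subunit, Mrpl52 (a subunit with no bacterial counterpart), Mrpl20 (the counterpart of bacterial L20) and Mrpl33 were highest, at 1550, 1427 and 1418 per kilobase, and their ranges over libraries overlapped. Mrpl57, Mrpl48 and Mrpl47 were lowest, at 114, 107 and 81.4. In the small subunit, Mrps21, Mrps6 and Mrps33 had 1388, 1282 and 781 per kilobase, and Mrps26, Mrps25 and Mrps35 had 106, 80.7 and 69.1. The ranges of Mrps21 (1124 to 1794) and Mrps6 (1012 to 1645) overlapped, while that of Mrps33 (723 to 839) lay below both. From the highest to the lowest member, levels per kilobase thus differed more than 10-fold. Lengths are of annotated transcripts linked to a RefSeq messenger RNA, and a long annotated form lowers a level per kilobase.

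**Figure D1:**
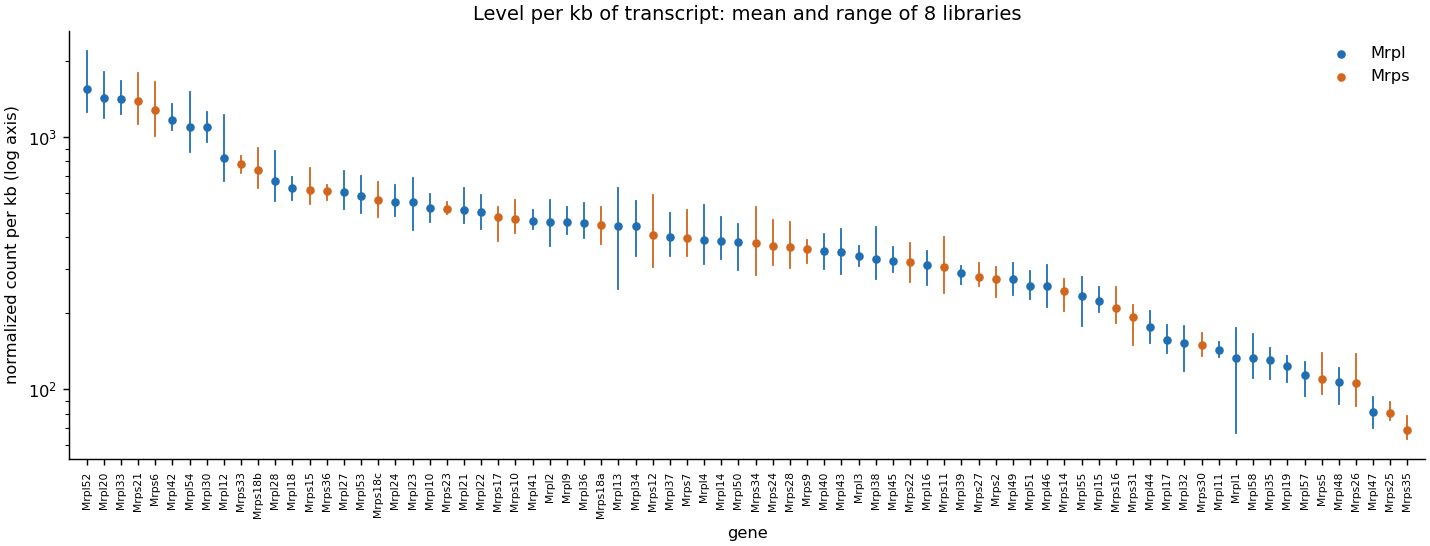
Level of each of the 78 members in normalized counts per kilobase of transcript (log axis), ordered from highest to lowest; points are means and bars the range over all 8 libraries, blue for Mrpl and orange for Mrps. Both subunits are spread along the whole range from Mrpl52 at 1550 to Mrps35 at 69.1.

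Library by library, most members shifted together, and the pair that stood apart had the highest levels. The median member, relative to the WT mean on the log2(normalized count + 1) scale, was at -0.01 and 0.01 in WT, 0.31 and 0.04 in Tfam+/- cells, 0.03 and 0.27 in Zbp1-/-, and 0.14 and 0.15 in the double mutant. The first library of Tfam+/- and the second of Zbp1-/- were thus high, while their replicates were near WT. Both double mutant libraries were slightly above WT, with 70 and 73 of 78 members above the WT mean. The same count was 67 and 54 in Tfam+/- and 44 and 63 in Zbp1-/-. The genotype mean on this scale was above that of WT for 65, 62 and 74 members in Tfam+/-, Zbp1-/- and the double mutant. Over all 13267 tested genes these counts were 6463, 8038 and 10059, so most genes were above WT in the double mutant. The summed normalized counts of all members were 38945 and 39257 in WT, 47368 and 40365 in Tfam+/- cells, 39584 and 46463 in Zbp1-/-, and 43230 and 43315 in the double mutant. Sums over all tested genes were 17081164 and 17115782 in WT, and 16742256 and 17188561 in Tfam+/- cells. They were 18291425 and 17808541 in Zbp1-/-, and 18065788 and 18041774 in the double mutant.

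The large and small subunits kept nearly the same distance from each other in all libraries. The mean log2 level of Mrpl genes minus that of Mrps genes was 0.09 and 0.10 in WT, 0.11 and 0.10 in Tfam+/- cells, 0.12 and 0.14 in Zbp1-/-, and 0.09 and 0.12 in the double mutant. The ranges of WT, Tfam+/- and the double mutant overlapped, and both Zbp1-/- libraries were the highest, at 0.119 and 0.137, next to 0.118 in a double mutant library. The symbols do not match the structure in every case: Mrps30 and Mrps18a encode proteins of the large subunit, and Mrps36 encodes a component of the oxoglutarate dehydrogenase complex. With these assigned by structure, the difference ran from 0.06 to 0.10 over all libraries. A double mutant library, at 0.089, then lay between the Zbp1-/- libraries at 0.085 and 0.097. Median log2 changes against WT were 0.16 for Mrpl and 0.21 for Mrps genes in Tfam+/- cells, 0.18 and 0.15 in Zbp1-/-, and 0.15 and 0.15 in the double mutant.

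**Figure D2:**
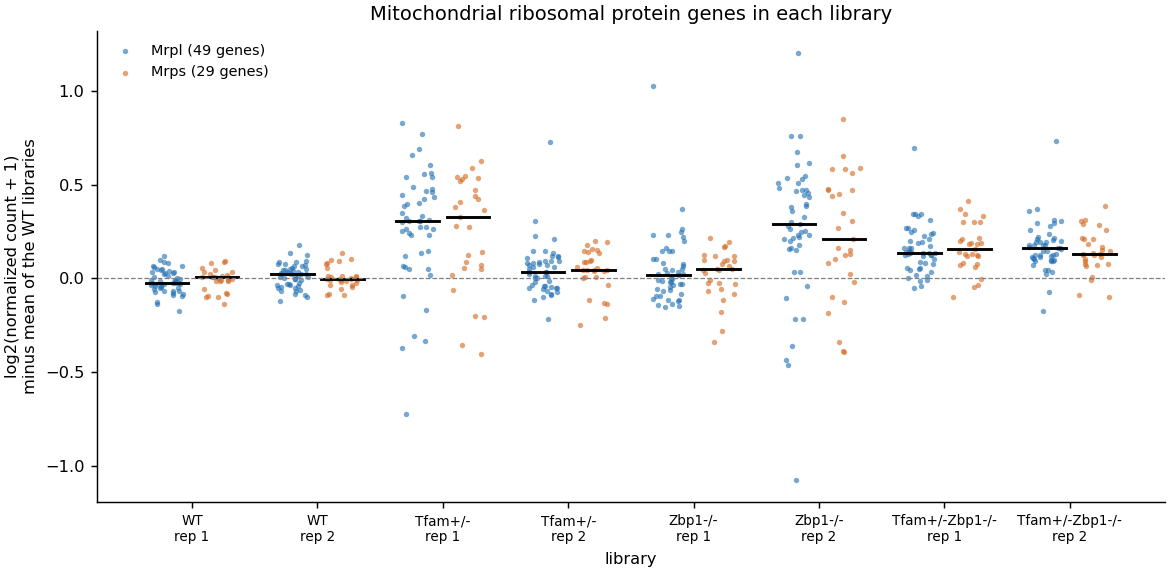
Each point is 1 member in 1 library, as log2(normalized count + 1) minus the mean of the WT libraries, blue for the 49 Mrpl and orange for the 29 Mrps genes; bars are subunit medians. Both subunits are high in Tfam+/- replicate 1 and Zbp1-/- replicate 2, near 0 in the other library of each genotype, and slightly above 0 in both Tfam+/-Zbp1-/- libraries.

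The shift of the pair was examined for each member. Levels were higher in both libraries of the pair than in their replicates for 62 members, lower in both for 11 (Mrps14, Mrpl50, Mrpl35, Mrps22, Mrps31, Mrpl32, Mrpl47, Mrpl1, Mrps33, Mrps2 and Mrpl19) and mixed for 5. In a limma fit with a term for the pair, that term passed the threshold (adjusted p under 0.05) as higher for 51 members and lower for 9, where 31.1% and 34.2% of all tested genes did. Among cytosolic ribosomal proteins it was higher for 74 of 79. The largest positive terms were those of Mrpl52 (0.68 ± 0.06 on the log2 scale, SE), Mrpl54 (0.64 ± 0.06), Mrpl4 (0.63 ± 0.06) and Mrpl12 (0.63 ± 0.05), and the most negative those of Mrpl1 (-1.06 ± 0.08) and Mrps31 (-0.46 ± 0.08). Mrpl1, a protein of the stalk through which spent tRNA leaves the ribosome, had 347 and 359 normalized counts in WT, 214 and 437 in Tfam+/- cells, 358 and 167 in Zbp1-/-, and 385 and 385 in the double mutant. Its lowest values were those of the pair, and the other 6 libraries lay within 347 to 437. Mrpl12, the stalk protein that also binds the mitochondrial RNA polymerase, had 962 and 918 in WT, 1605 and 1001 in Tfam+/- cells, 880 and 1314 in Zbp1-/-, and 1023 and 1017 in the double mutant, so here the pair was highest. Across members, the shift went with the GC content of the transcript (r = 0.73, n = 78) and less with log2 length (r = -0.38); over 12697 tested genes the values were 0.78 and -0.31. Genes are not independent replicates and share the same libraries, so these are descriptions. Median GC content was 43.6% in the 9 members lower in the pair and 52.5% in the 51 higher ones. The part of GC content in the shift was not tested.

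**Figure D3:**
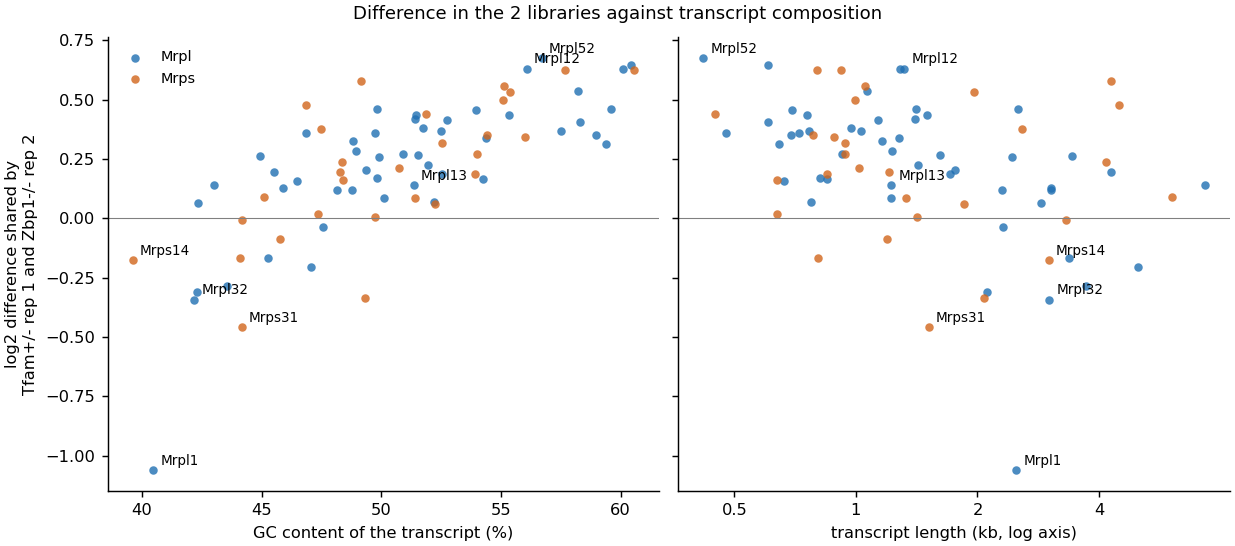
Log2 difference shared by Tfam+/- replicate 1 and Zbp1-/- replicate 2 for each of the 78 members, against the GC content (left, percent) and length (right, kilobases, log axis) of its transcript; blue is Mrpl and orange Mrps. GC-rich members such as Mrpl52 and Mrpl12 lie above 0.6, while GC-poor Mrpl1 lies at -1.06.

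With all 8 libraries, 1 member passed the threshold in any of the 6 comparisons (limma, Benjamini-Hochberg adjustment over all 13267 tested genes, adjusted p under 0.05). In Tfam+/- against WT 0 of 78 members were called, where 0.731% of all tested genes were. At an unadjusted p under 0.05 there were 2 members higher and 1 lower, beside 585 and 574 of all 13267 genes. In Zbp1-/- against WT 1 member, Mrpl13, was called higher (1.06% of all genes were called, 0.897% as higher). Unadjusted, 3 members were higher and 1 lower, beside 2182 and 437 genes. In the double mutant 0 were called against WT (1.38% of genes called), 0 against Tfam+/- (5.64%) and 0 against Zbp1-/- (0.415%). At an unadjusted p under 0.05, 4 members were higher and 0 lower than in WT, beside 1194 and 480 genes. Against Tfam+/- there were 3 and 1, beside 1941 and 815 genes, and against Zbp1-/- 1 and 1, beside 747 and 879. The interaction, which is the Tfam effect without Zbp1 minus that with Zbp1, called 0 members (0.663% of genes called), with 3 positive and 2 negative at an unadjusted p under 0.05, beside 1067 and 1056 genes. With 2 libraries on each side, the smallest p of an exact permutation test is 0.333, and the calls therefore rest on the spread that limma pools over genotypes. Tfam itself was not called in Tfam+/- against WT (log2 change -0.96, limma, adjusted p 0.163). The absence of a call therefore does not show the absence of a change.

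The median log2 change of members, beside that of all tested genes, was 0.17 against -0.01 in Tfam+/- against WT, 0.17 against 0.11 in Zbp1-/- against WT, and 0.15 against 0.12 in the double mutant against WT. In the double mutant it was -0.01 against 0.14 when set beside Tfam+/-, and -0.01 against 0.02 beside Zbp1-/-. The first 3 of these comparisons share the WT libraries and the last 3 share the double mutant. The deposited scaling puts the median of all genes above 0 in several comparisons. After TMM rescaling (a trimmed mean of the log ratios between libraries sets the scale), the member medians were 0.16, 0.05, 0.03, -0.13 and -0.01 in the same order, beside -0.01, -0.01, 0.00, 0.03 and 0.02 for all genes. With a term for the pair, the member medians became 0.04, 0.03, 0.15, 0.13 and 0.14 in the same order, beside -0.01, 0.11, 0.12, 0.13 and 0.01 for all genes. The positive member medians in Tfam+/- and in Zbp1-/- against WT thus came mostly from 1 library of each genotype.

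**Figure D4:**
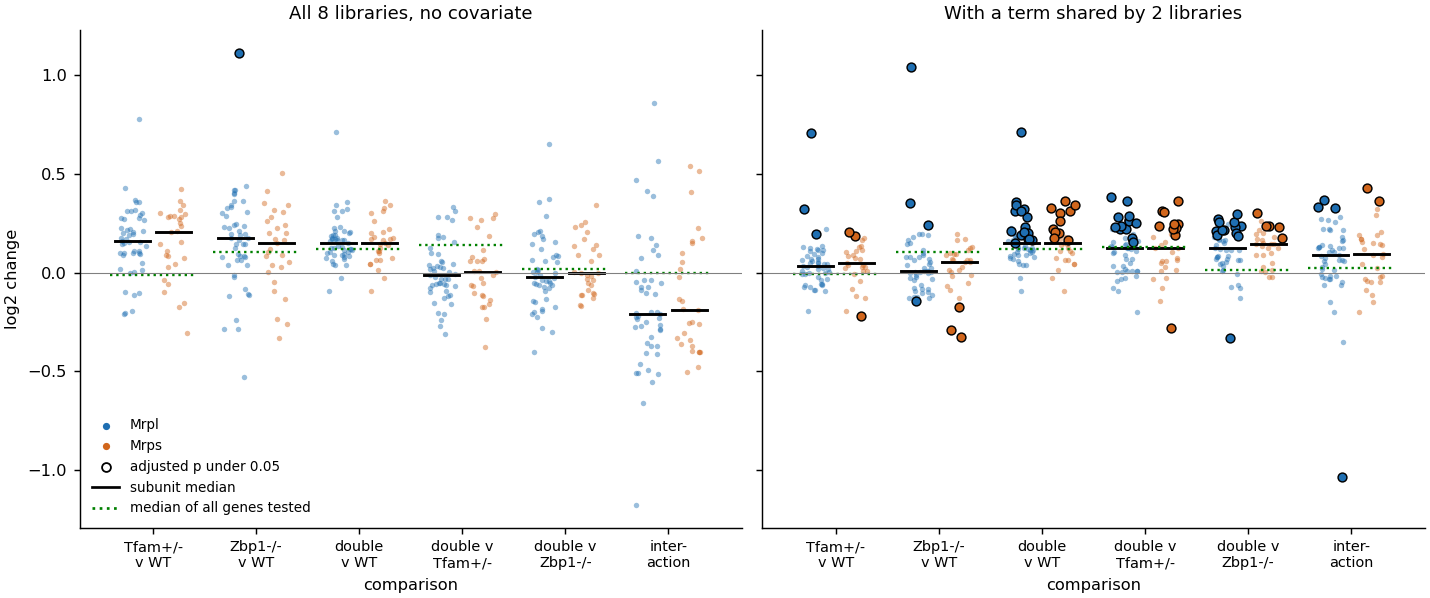
Log2 change of each member in the 6 comparisons, with all 8 libraries (left) and with a term shared by the 2 libraries that stand apart (right); double is Tfam+/-Zbp1-/-. Outlined points pass an adjusted p under 0.05, black bars are subunit medians and green dotted lines the median of all genes tested. On the left only Mrpl13 in Zbp1-/- against WT is outlined.

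Mrpl13 (chromosome 15, 55534095 to 55557312, minus strand) encodes the counterpart of bacterial L13, a protein that joins the large subunit early in its assembly. It had 363 and 307 normalized counts in WT, 593 and 552 in Tfam+/- cells, 680 and 769 in Zbp1-/-, and 541 and 555 in the double mutant. Both WT libraries were the lowest and both Zbp1-/- libraries the highest, and the remaining 4 lay between with no overlap. The log2 change in Zbp1-/- against WT was 1.11 ± 0.13 (SE; limma, adjusted p 0.0195), a little over a doubling. In Tfam+/- it was 0.78 ± 0.13 (adjusted p 0.0711) and in the double mutant 0.71 ± 0.13 (adjusted p 0.0596). The double mutant was lower than Zbp1-/- by -0.40 ± 0.13 (adjusted p 0.285), and the interaction was -1.18 ± 0.18 (adjusted p 0.057). The Zbp1-/- call was lost (adjusted p 0.0541 to 0.233, log2 change 0.99 to 1.24) without either WT, either Zbp1-/- or either double mutant library, and when only those genotypes were fitted (adjusted p 0.144). With a term for the pair, a term chosen from these same data, these 4 contrasts and the interaction passed. The log2 changes were 1.04, 0.71, 0.71 and -0.33 and the interaction -1.04 (limma, adjusted p 1.64e-08, 5.54e-06, 4.68e-07, 0.00648 and 1.03e-05). In Zbp1-/- against WT that fit called 4717 of 13267 genes, beside 141 without the term. Mrpl13 was little affected by the pair itself, with a term of 0.14 in that fit.

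The neighbours of Mrpl13 behaved differently. Mtbp, which starts 92 bases away on the opposite strand, had 420 and 418 normalized counts in WT, 390 and 455 in Tfam+/- cells, 348 and 374 in Zbp1-/-, and 431 and 464 in the double mutant. In Zbp1-/- its values were thus the lowest, opposite to Mrpl13, with a log2 change of -0.22 (adjusted p 0.354). Col14a1, a collagen gene on the other side, had 420 and 476 in WT, 263 and 227 in Tfam+/- cells, 801 and 751 in Zbp1-/- and 335 and 370 in the double mutant. It shared the high level in Zbp1-/- (0.79, adjusted p 0.0546) but was low in Tfam+/-, where Mrpl13 was high. RefSeq's promoter table held no window for Mrpl13.

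**Figure D5:**
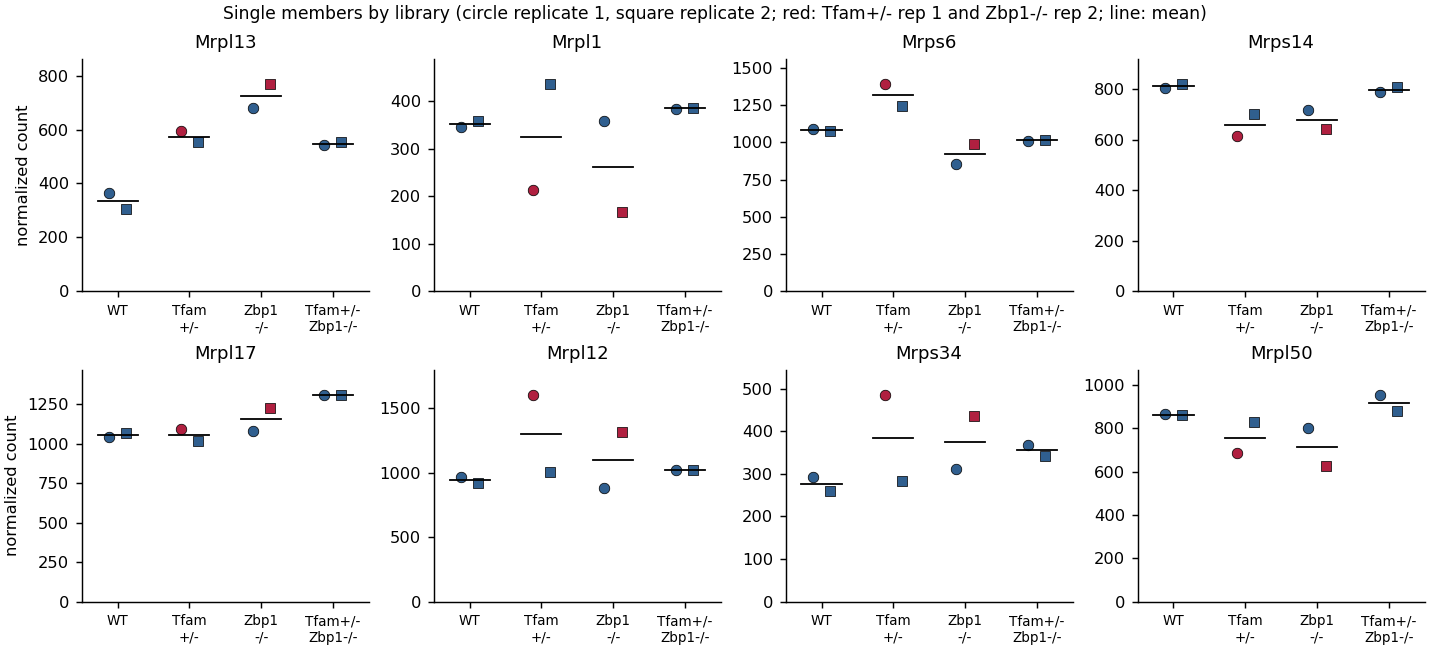
Normalized counts of 8 members in every library, by genotype; circles are replicate 1, squares replicate 2, red the 2 libraries that stand apart and lines the genotype mean. Mrpl13 is lowest in WT (363 and 307) and highest in Zbp1-/- (680 and 769), and Mrpl17 is highest in Tfam+/-Zbp1-/- (1309 and 1310).

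In Tfam+/- against WT, 31 members were higher in both libraries than in both WT libraries and 4 lower in both, where 23.3% and 25.5% of all genes were. After Mrpl13, the highest changes among those were of Mrpl12 (0.43 ± 0.26, adjusted p 0.559) and Mrpl54 (0.37 ± 0.27), and both were mostly those of the pair library: they were 0.12 and 0.05 with the shared term. Mrps14, a protein of the small subunit head, had 805 and 820 normalized counts in WT, 615 and 702 in Tfam+/- cells, 717 and 642 in Zbp1-/-, and 787 and 807 in the double mutant. Both single mutants lay below WT and the double mutant, with no overlap. Its log2 change was -0.31 ± 0.12 in Tfam+/- (limma, adjusted p 0.514), and with the shared term -0.22 (adjusted p 0.0156). Among members whose libraries did not overlap, Mrpl50 and Mrps22 were the next lowest, at -0.20 and -0.17, neither of them called. With the shared term, 5 members were called higher (Mrpl13, Mrpl1, Mrps27, Mrpl30 and Mrps6) and 1 lower (Mrps14), where 7.39% and 8.2% of all genes were. The direction of Mrpl1 turned between the fits, from -0.21 with all 8 libraries to 0.32 with the shared term (adjusted p 0.0168). In the 6 libraries without the pair, 4 and 1 were called, where 6.98% and 8.46% of all genes were. The member counts with the shared term were thus near or below the general share.

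In Zbp1-/- against WT, 32 members were higher in both libraries and 9 lower in both, beside 42.1% and 16.8% of all genes. Mrps12, the decoding-centre protein, had 244 and 281 normalized counts in WT, 405 and 272 in Tfam+/- cells, 294 and 472 in Zbp1-/-, and 323 and 343 in the double mutant. Its change of 0.51 ± 0.27 (adjusted p 0.328) was largely that of the pair library. Its head-to-head partner Sars2 had 100 and 132 in WT, 171 and 138 in Tfam+/- cells, 134 and 199 in Zbp1-/- and 149 and 143 in the double mutant, so the pair libraries were the highest for both genes. Mrpl55 had 151 and 182 in WT and 214 and 236 in Zbp1-/-, a change of 0.44 ± 0.15 (adjusted p 0.2) that kept 0.36 with the shared term (adjusted p 0.0308). On the lower side, Mrps22, a small subunit protein without a bacterial counterpart, had 399 and 432 in WT, 360 and 377 in Tfam+/- cells, 342 and 317 in Zbp1-/-, and 453 and 387 in the double mutant. The change was -0.33 ± 0.13 (adjusted p 0.229), and -0.29 with the shared term (adjusted p 0.0214). Mrpl32, whose maturation by a mitochondrial protease precedes ribosome assembly, and Mrpl50 were both at -0.29 (adjusted p 0.371 and 0.339). Mrpl32 had 479 and 488 in WT and 440 and 357 in Zbp1-/-, with the lower value in the pair library, while its partner Psma2 across the motif-bearing promoter printed above stayed between 2565 and 2894 in all libraries. The shared term called 3 members higher (Mrpl13, Mrpl55 and Mrpl23) and 4 lower (Mrps6, Mrps22, Mrps14 and Mrpl20), where 28.5% and 7.01% of all genes were. The 6 libraries gave 4 and 4 (27.2% and 7.09% of all genes).

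In the double mutant against WT, 60 members were higher in both libraries and 1 (Mrps6) lower in both, beside 58.8% and 14.1% of all genes. The 2 double mutant libraries agreed closely for the members, with a median absolute log2 difference of 0.05 between them. Mrps34, which the small subunit needs for its stability, had 293 and 261 normalized counts in WT and 369 and 343 in the double mutant, a change of 0.36 ± 0.27 (limma, adjusted p 0.657). Mrpl23, which lies at the exit of the peptide tunnel, had 331 and 296 in WT and 398 and 405 in the double mutant, also 0.36 (adjusted p 0.476). With the shared term both were called (adjusted p 0.00342 and 0.00118), among 28 members called higher and 0 lower. Of these, 16 were Mrpl and 12 Mrps genes. The general shares in the same fit were 35.3% higher and 7.19% lower, so 28 of 78 was near them. The 6 libraries gave 30 higher and 0 lower (37.1% and 7.71% of all genes). A fit of only WT and the double mutant, which holds neither library of the pair, also called 30 members higher, where it called 5935 of 13267 genes in either direction. All of these counts are on the deposited scale, on which the median of all genes was itself at 0.12. In all, 13 members were above WT in all 6 libraries of the other genotypes (16.7%, beside 11.6% of all genes).

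Mrpl17, the counterpart of bacterial L17, had its highest level in the double mutant. It had 1044 and 1066 normalized counts in WT, 1091 and 1018 in Tfam+/- cells, 1081 and 1226 in Zbp1-/-, and 1309 and 1310 in the double mutant, which lay above all others. Against Tfam+/- the log2 change was 0.31 ± 0.11 (limma, adjusted p 0.161), and 0.38 with the shared term (adjusted p 5.75e-06), where its interaction of 0.33 also passed (adjusted p 0.0059). The small subunit protein Mrps18c had 307 and 351 in WT, 332 and 338 in Tfam+/- cells, 350 and 365 in Zbp1-/- and 425 and 401 in the double mutant. It was likewise highest there, by 0.30 ± 0.12 against Tfam+/- (limma, adjusted p 0.218, and 0.0111 with the shared term). In this comparison the median of all genes was itself at 0.14, and the shared term called 35.4% of all genes higher. After TMM rescaling, Mrpl17 was at 0.20 and Mrps18c at 0.18 against Tfam+/- (limma, adjusted p 0.42 and 0.484). The paralogs of Mrps18c did not share its order of genotypes. Mrps18b had 626 and 686 in the double mutant beside 669 and 590 in WT, and Mrps18a had 434 and 389 beside 351 and 334, with the highest values of both in the pair libraries.

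Against Tfam+/-, 15 members were higher in both double mutant libraries and 6 lower in both (42.4% and 13.5% of all genes). The lowest change was that of Mrps6, which had 1088 and 1076 normalized counts in WT, 1392 and 1244 in Tfam+/- cells, 856 and 991 in Zbp1-/-, and 1011 and 1018 in the double mutant. Tfam+/- was above WT, and both genotypes lacking Zbp1 were below it, with no overlap. The change against Tfam+/- was -0.37 ± 0.12 (limma, adjusted p 0.13), and -0.28 with the shared term (adjusted p 0.000184). Mrps6 overlaps Slc5a3 on the genome and is 1 of 20 members that overlap another protein-coding gene. Strand use in counting is not given, so the reads of these members are uncertain. Slc5a3 had 2613 and 2671 in WT, 1152 and 2536 in Tfam+/- cells, 1649 and 754 in Zbp1-/- and 2190 and 2129 in the double mutant, an order unlike that of Mrps6. Mrps18b and Mrpl20 were lower by -0.23 and -0.21, neither called, and by -0.08 and -0.03 with the shared term. In that fit 22 members were higher and 1 lower, where 35.4% and 10.2% of all genes were, and the 6 libraries gave 20 and 1 (33.7% and 9.87%).

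Against Zbp1-/-, 20 members were higher in both double mutant libraries and 5 lower in both (26.2% and 23.3% of all genes). Mrpl50, which occurs only in mitochondrial ribosomes, had 865 and 860 normalized counts in WT, 686 and 828 in Tfam+/- cells, 799 and 627 in Zbp1-/-, and 956 and 878 in the double mutant. The change was 0.37 ± 0.16 (limma, adjusted p 0.408), and 0.22 with the shared term (adjusted p 0.0148). Mrpl1 and Mrpl32 had changes of 0.65 and 0.36, and of 0.12 and 0.18 with the shared term, and were called in neither fit. Among members whose libraries did not overlap, Mrpl13, Mrpl34 and Mrpl55 had the lowest changes, at -0.40, -0.28 and -0.21. The shared term called 17 members higher and 1 (Mrpl13) lower, where 12.8% and 11% of all genes were. The 6 libraries, with 1 of Zbp1-/-, gave a member median of 0.13, beside 0.01 for all genes. Of 26 cell cycle genes, 25 were above 0 in the same comparison, beside 6946 of 13267 genes, and their median was 0.40 beside 0.02. The shared term called 22 of them higher, where it called 12.8% of all genes. It also called 20 of the 26 higher in the double mutant against WT (35.3% of all genes) and 13 higher against Tfam+/- (35.4%). In Zbp1-/- against WT it called 14 lower (7.01%). The part of cell cycle genes in the member values was not tested.

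For the interaction, the member median was -0.21 with all 8 libraries, beside 0.00 for all genes, and 0.09 beside 0.02 with the shared term. The sign of the members' median interaction was therefore set by the pair. Mrpl1 (0.86 ± 0.60) and Mrpl52 (-0.66 ± 0.39) had the most extreme values besides Mrpl13 and changed sign with the shared term, to -0.20 and 0.02. Mrpl52 had 527 and 559 normalized counts in WT, 877 and 551 in Tfam+/- cells, 573 and 919 in Zbp1-/-, and 599 and 578 in the double mutant, with 6 libraries between 527 and 599. Mrps14 (0.54 ± 0.17, limma, adjusted p 0.236) kept 0.36 with the shared term (adjusted p 0.00952), and Mrps22 went from 0.52 to 0.43 (adjusted p 0.048). Mrpl50 went from 0.57 to 0.26 and was called in neither (adjusted p 0.0749 with the shared term). Mrpl34 was at -0.55 ± 0.31 and -0.15 with the shared term, called in neither. The shared term called 5 members positive (Mrpl17, Mrpl42, Mrps14, Mrpl53 and Mrps22) and 1 negative (Mrpl13), where 8.46% and 8.43% of all genes were, and the 6 libraries 4 and 1 (9.96% and 9.14%).

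Most other proteins chosen by role had narrow ranges or differed mainly in the pair. Mrpl11, at the base of the stalk that recruits translation factors, stayed between 407 and 468 normalized counts in all libraries. Mrpl3 stayed between 711 and 852, Mrps30 between 451 and 554, and Mrps36 between 356 and 411. Mrps5, at the messenger RNA entry, had 434 and 436 in WT, 622 and 453 in Tfam+/- cells, 428 and 605 in Zbp1-/- and 485 and 456 in the double mutant. Mrpl58, a release factor that frees stalled ribosomes, had 287 and 278, then 416 and 289, 313 and 413, and 341 and 347 in the same order of genotypes. For both, the pair was highest. The double mutant libraries of Mrpl58 were also above WT, by 0.28 on the log2 scale, which passed with the shared term (adjusted p 0.00735) and not with all 8 libraries (adjusted p 0.646). Mrps15 had 508 to 513 in WT and 546 to 707 elsewhere, and all 6 other libraries were above WT. Mrpl44, an RNase III-like protein of the large subunit, ranged from 218 to 291. The narrowest member was Mrps23, at 659 to 734.

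The median correlation of log2 levels over all 3003 pairs of members was 0.53 across 8 libraries and 0.46 across the 6 without the pair. These values were not set beside those of other genes, whose levels also shift together on the deposited scale. Mrps24 followed the mean of the other members most closely (r = 0.99 over 8 libraries), and Mrpl35 ran most against it (r = -0.80). Mrpl46 and Mrps11, which share the promoter printed above, had 239 and 270, and 255 and 308, in WT, 344 and 277, and 407 and 289, in Tfam+/- cells, 246 and 352, and 275 and 423, in Zbp1-/-, and 290 and 300, and 319 and 312, in the double mutant. Both genes were highest in the pair.

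The other genes of the pathway were described by lists. With all 8 libraries, limma called no gene in any comparison among 5 mitochondrial ribosomal proteins with other symbols (Dap3, Ptcd3, Chchd1, Aurkaip1 and Gadd45gip1), 27 assembly factors and 15 translation factors. The same held for 20 aminoacyl-tRNA synthetases, 18 regulators of mitochondrial gene expression, 79 cytosolic ribosomal proteins and 26 cell cycle genes. The regulators include Tfam itself, at -0.96 in Tfam+/- and -0.63 in the double mutant against WT (limma, adjusted p 0.163 and 0.263). The synthetases include Gars, Kars and Qars, which are not specific to mitochondria. In the double mutant against WT the medians of these lists, in the same order, were 0.12, 0.13, 0.14, 0.15, 0.08, 0.12 and 0.23. The median was 0.15 for the members and 0.12 for all genes. With the shared term, the same comparison called 3 of 5, 7 of 27, 2 of 15, 7 of 20, 4 of 18, 65 of 79 and 20 of 26 higher. It called 0, 1, 0, 0, 1, 0 and 0 lower. The shares of all genes were 35.3% and 7.19%. Myc, which drives ribosome synthesis, had 680 and 643 normalized counts in WT, 996 and 954 in Tfam+/- cells, 639 and 568 in Zbp1-/- and 707 and 670 in the double mutant. It was highest in both Tfam+/- libraries, by 0.56 against WT (adjusted p 0.125; 0.59 with the shared term). Nrf1 stayed between 404 and 520. Gabpa, the DNA-binding part of GABP, had 1743 and 1803 in WT, 1010 and 1685 in Tfam+/- cells, 1953 and 1074 in Zbp1-/- and 1845 and 1770 in the double mutant, and was lowest in the pair. Mettl17, an assembly factor of the small subunit, had 159 and 182 in Zbp1-/- and 113 and 117 in the double mutant, a change of -0.56 (adjusted p 0.194; 0.0164 with the shared term).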

How the data were processed

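Per the series' design text and the submitters' processing notes, reads were aligned to mm10 with RefSeq genes using STAR 2.6.1a in BaseSpace, and Salmon is also named. The deposited signal per gene is a normalized count that is never negative. The sources used here do not give the counting method, the strand setting or the scaling. Among values of up to 20 reads, 22.2% to 35% per library lay within 0.01 of whole reads, so whole reads were not recovered and no count model was run.

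Of 24972 genes, 13267 with a mean of at least 10 were tested on log2(normalized count + 1), which understates changes of low genes. limma 3.58.1 in R 4.3.3 (eBayes with trend; 4 residual and 2.77 prior degrees of freedom) fitted all 4 genotypes together. Tests were two-sided, with calls at an adjusted p under 0.05 (Benjamini-Hochberg). The script was tested on simulated data. The shared term had 3 residual and 15.1 prior degrees of freedom, and the 6-library fit 2 and 14.6.

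Named members were those called, the 3 largest rises and falls per comparison among members whose libraries did not overlap (for the interaction, without that condition), the 3 highest and lowest per kilobase in each subunit, and 15 chosen by role. Mrpl4, Mrpl35, Mrps23, Mrps24, Mrps27, Mrps31, Mrpl30, Mrpl36, Mrpl39, Mrpl42, Mrpl46, Mrpl53, Mrps11, the members listed by name beside counts, the head-to-head partners, Col14a1, Myc, Nrf1, Gabpa and Mettl17 were named after their values were seen. Members and lists were chosen with earlier results of these data known. Alternatives were other pseudocounts and filters, TMM, a prior without trend, only the genotypes compared, a replicate block and each library left out. Replicate numbers did not pair the samples. Coordinates are RefSeq's, 1-based, on GRCm38.p6; lengths and GC content are of GENCODE transcripts.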

Additional observations from a re-analysis of the deposited data

How the results depend on the processing

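The counts of members called depended on how the 2 libraries that stand apart were treated. In the order Tfam+/-, Zbp1-/- and the double mutant against WT, the double mutant against each single mutant, and the interaction, 0, 1, 0, 0, 0 and 0 members were called with all 8 libraries. With a term shared by the pair the counts were 6, 7, 28, 23, 18 and 6, and in the 6 libraries without it 5, 8, 30, 21, 14 and 5, with 1 or 2 fewer residual degrees of freedom and a larger prior; the cause was not tested beyond that. Fitting only the genotypes compared called 0 members and 1 of 13267 genes in Zbp1-/-, and 30 members and 5935 genes in the double mutant, each against WT. The member median in Zbp1-/- against WT went from 0.17 to 0.026 with the shared term and 0.027 in 6 libraries, the double mutant against Tfam+/- from -0.01 to 0.13 and 0.12, against Zbp1-/- from -0.01 to 0.14 and 0.13, and the interaction from -0.21 to 0.092 in both. The interactions of Mrpl1 (0.86 to -0.20) and Mrpl52 (-0.66 to 0.017) turned in both. Leaving out 1 library at a time, members called ranged from 0 to 1 in Zbp1-/- against WT and were 0 elsewhere. Medians ranged from 0.044 to 0.307 in Tfam+/- and 0.027 to 0.274 in Zbp1-/- against WT, 0.13 to 0.16 in the double mutant against WT, -0.16 to 0.12 against Tfam+/-, -0.15 to 0.13 against Zbp1-/-, and -0.34 to -0.059 for the interaction. The large minus small subunit median in Zbp1-/- against WT was 0.028, and -0.045 with the shared term and -0.03 in 6 libraries. Leaving out 1 library it ranged from -0.03 to 0.081 there, from -0.022 to 0.054 in the double mutant against WT, from -0.015 to 0.052 against Tfam+/-, from -0.097 to -0.013 against Zbp1-/-, and from -0.073 to 0.074 for the interaction, beside an SD of 0.047 between replicates; the cause was not tested. Of the fits of Zbp1-/- against WT, those without WT replicate 1 or 2, Zbp1-/- replicate 1 or 2, or Tfam+/-Zbp1-/- replicate 1 or 2 called 0.

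Replicate numbers were not a pairing: deviations of same-numbered libraries correlated at -0.70 between Tfam+/- and Zbp1-/-, -0.37 between WT and the double mutant, and -0.06 to 0.06 otherwise. With the replicate block, 0 members were called in Zbp1-/- against WT (Mrpl13 adjusted p 0.0983) and no other count changed. The crossed pairing of WT and the double mutant, chosen after seeing the data, called 0. Pseudocounts of 5 and 0.1, both other filters, TMM rescaling and the prior without trend kept every count; TMM moved the median of all genes by -0.12 in Zbp1-/- and in the double mutant against WT. Count tests and, for the interaction, a fit of only the genotypes compared were not run. The depth behind each value is unknown, since only normalized counts were used.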
